A study of Mus musculus with 3 samples.

Results

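The genes of cholesterol and fatty acid synthesis were followed in mouse leukaemia cells. The set holds 32 genes of the 34769 names on the array, chosen by pathway: 18 enzymes that build cholesterol from acetyl-CoA, 6 regulators and sterol carriers, and 8 enzymes that make, elongate or desaturate fatty acids. The cells were HoxA9-Meis1 acute myeloid leukaemia cells of C57Bl/6 bone marrow origin, grown in SFEM medium. A culture received 3.4 µM of Pyrydopyrazine A2 (A2) and another received 10 µM of all-trans retinoic acid with 10 µM of 1α-hydroxy vitamin D3 (RA+D3V), both for 24 h. Untreated cells of the same kind served as control. Each condition was hybridised to 1 array, so no difference has a replicate check and no p-value is given. The labels do not say how the HoxA9-Meis1 cells were made, whether they are a clone, or what vehicle the untreated cells received.

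Cholesterol is built from acetyl-CoA through mevalonate, isoprenoid units, squalene and lanosterol, and fatty acids are built from the same acetyl-CoA through malonyl-CoA. Much of both pathways is transcribed under the sterol regulatory element binding proteins, which are escorted by Scap from the endoplasmic reticulum for cleavage when sterols are scarce and are held back by the Insig proteins when sterols are plentiful. The intermediates also feed protein prenylation, and dividing myeloid cells use both lipids for membranes.

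The deposited scanner files and the deposited value table disagree on which treated array is which. The column labelled RA+D3V in the authors' value table had the same rank order over all spots as the scanner file labelled A2 (Spearman's rho of 1), and the column labelled A2 matched the scanner file labelled RA+D3V in the same way. Cyp24a1, the vitamin D-induced enzyme that breaks down vitamin D, had a processed signal of 18398.5 on the A2-labelled scanner array and 5.03 on the RA+D3V-labelled scanner array, against 4.41 on the untreated array. Other genes read for the same check were also high on the A2-labelled array. The signals there and on the RA+D3V-labelled array were 1185.55 and 4.83 for Cyp26a1 (untreated 5.46) and 1903.92 and 23.5 for Cyp26b1 (untreated 30.4). For Tgm2 they were 16210.7 and 90.4 (untreated 185.8). The scanner files' labels are used below, each treated array is called by its label, and which treatment it holds was not settled here. Directions against untreated cells that hold on both treated arrays do not depend on this.

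Between 46.0% and 46.8% of the 59305 spots were well above background on each array, and none was saturated. All 13 myeloid markers, such as Mpo and Elane, were well above background on all 3 arrays, as was Hoxa9, while the probe of Meis1 was on none. Of these markers 3 were called higher and 1 lower on the A2-labelled array than on the untreated array, and 2 higher and 1 lower on the RA+D3V-labelled array, a call being a difference of at least 2-fold. Of all measured genes, 7.92% were called higher and 6.46% lower on the A2-labelled array, and 7.81% higher and 5.04% lower on the RA+D3V-labelled array. Itgam differed by 2.37 (A2-labelled) and 2.31 (RA+D3V-labelled) log2 units, Fcgr3 by 1.73 (A2-labelled) and 0.89 (RA+D3V-labelled), Mpo by -2.22 (A2-labelled) and -1.57 (RA+D3V-labelled), and Elane by -0.85 (A2-labelled) and -0.96 (RA+D3V-labelled). The other called markers were Kit, at 1.70 (A2-labelled) and 0.42 (RA+D3V-labelled), and Lyz2, at 0.55 (A2-labelled) and 1.82 (RA+D3V-labelled). Prtn3 differed by 0.41 (A2-labelled) and -0.35 (RA+D3V-labelled), and Cebpa by -0.98 (A2-labelled) and 0.41 (RA+D3V-labelled), so the markers did not all shift alike. The part of this marker shift in the lipid gene values was not tested. Of 9 adipocyte and stromal markers, 4 were detected on the A2-labelled array and 3 on the RA+D3V-labelled array, against 2 on the untreated array, with Adipoq, Plin1, Lep, Pdgfra and Cxcl12 below background on all of them. Of 2 measured markers, 1 was called higher on the A2-labelled array (7.92% of all genes) and 2 on the RA+D3V-labelled array (7.81%). Cfd differed by 2.33 (A2-labelled) and 1.28 (RA+D3V-labelled), and Fabp4 by -0.92 (A2-labelled) and 1.07 (RA+D3V-labelled). Col1a1 was above background on the A2-labelled array alone, and Col1a2 on both treated arrays but not on the untreated array. The log2 summed signal of all 9 markers was 0.58 on the A2-labelled array and 1.38 on the RA+D3V-labelled array, against 0.33 on the untreated array. The part of these 9 markers in the results was not tested. The log2 summed signal of T and NK cell markers was 2.18 on the A2-labelled array and 2.21 on the RA+D3V-labelled array, against 2.81 on the untreated array. Of these, 3 of 4 measured markers were called lower on the A2-labelled array (6.46% of all genes) and 2 of 3 on the RA+D3V-labelled array (5.04%). For erythroid markers the sum was 1.21 on the A2-labelled array and 1.23 on the RA+D3V-labelled array, against 1.91 on the untreated array. For B cell markers it was 4.21 on the A2-labelled array and 3.64 on the RA+D3V-labelled array, against 4.24 on the untreated array. The part of these markers in the results was not tested either. Within an array, spots of 1 probe had a median SD of 0.0606 to 0.0703 log2 units. The control column of the value table matched none of the scanner files and served as a second control source. It differed from the untreated array with an SD of 0.28 log2 units over 17003 genes, and 0.935% of genes lay at least 2-fold apart.

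Each level is a log2 processed signal from which the 75th percentile of that array, also in log2, was subtracted, so a level of 0 is the 75th percentile and a difference of 1 is 2-fold. Levels are compared between arrays for 1 gene, never between genes. A gene that differed 2-fold or more between arrays is called higher or lower. Where a gene had several probes, the brightest was used. Of the 32 genes, 31 were well above background on all 3 arrays, and Scd1 was so on the A2-labelled array alone. In RNA from a whole culture, a change in the mix of cells and a change in RNA per cell cannot be told apart.

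Most of the lipid synthesis genes lay above their untreated level on both treated arrays, and none was called lower. On the A2-labelled array, 11 of 31 measured genes were called higher than on the untreated array, against 7.92% of 17279 measured genes, and 0 were called lower, against 6.46%. The median difference of the 31 genes was 0.76 log2 units, with -0.03 for all measured genes, and 25 of the 31 lay above 0, against 47.7% of all genes. On the RA+D3V-labelled array, 8 of 31 were called higher, against 7.81% of all measured genes, and 0 were called lower, against 5.04%. There the median was 0.57 (all genes -0.03), and 26 of 31 lay above 0, against 48.2%. Both comparisons use the same untreated array, so a low value of a gene on that array raises both differences together.

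**Figure D1:**
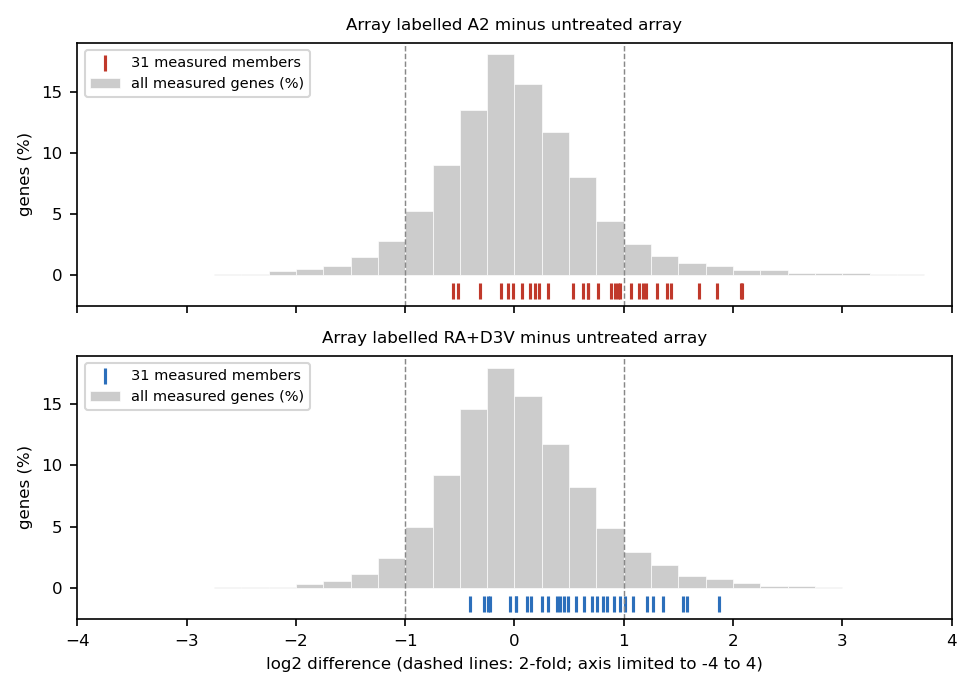
Log2 difference of each treated array from the untreated array, on the horizontal axis, for all measured genes (grey bars, percent of 17279 genes per bin) and for the 31 measured lipid synthesis genes (coloured ticks). No tick lies left of the lower 2-fold line in either panel, and 11 ticks in the upper and 8 in the lower panel lie right of the upper line.

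By pathway section, the median difference was highest for the enzymes of cholesterol synthesis and near 0 for the regulators. Of 18 such enzymes, 8 were called higher on the A2-labelled array, with a median difference of 0.95, and 6 on the RA+D3V-labelled array, with a median of 0.73. Of 7 measured fatty acid enzymes, 2 were called higher on the A2-labelled array (median 0.67) and 1 on the RA+D3V-labelled array (median 0.45). Of 6 regulators and carriers, 1 was called higher on each treated array, and the medians were 0.01 on the A2-labelled array and 0.04 on the RA+D3V-labelled array. The share of all measured genes called higher was 7.92% on the A2-labelled array and 7.81% on the RA+D3V-labelled array.

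**Figure D2:**
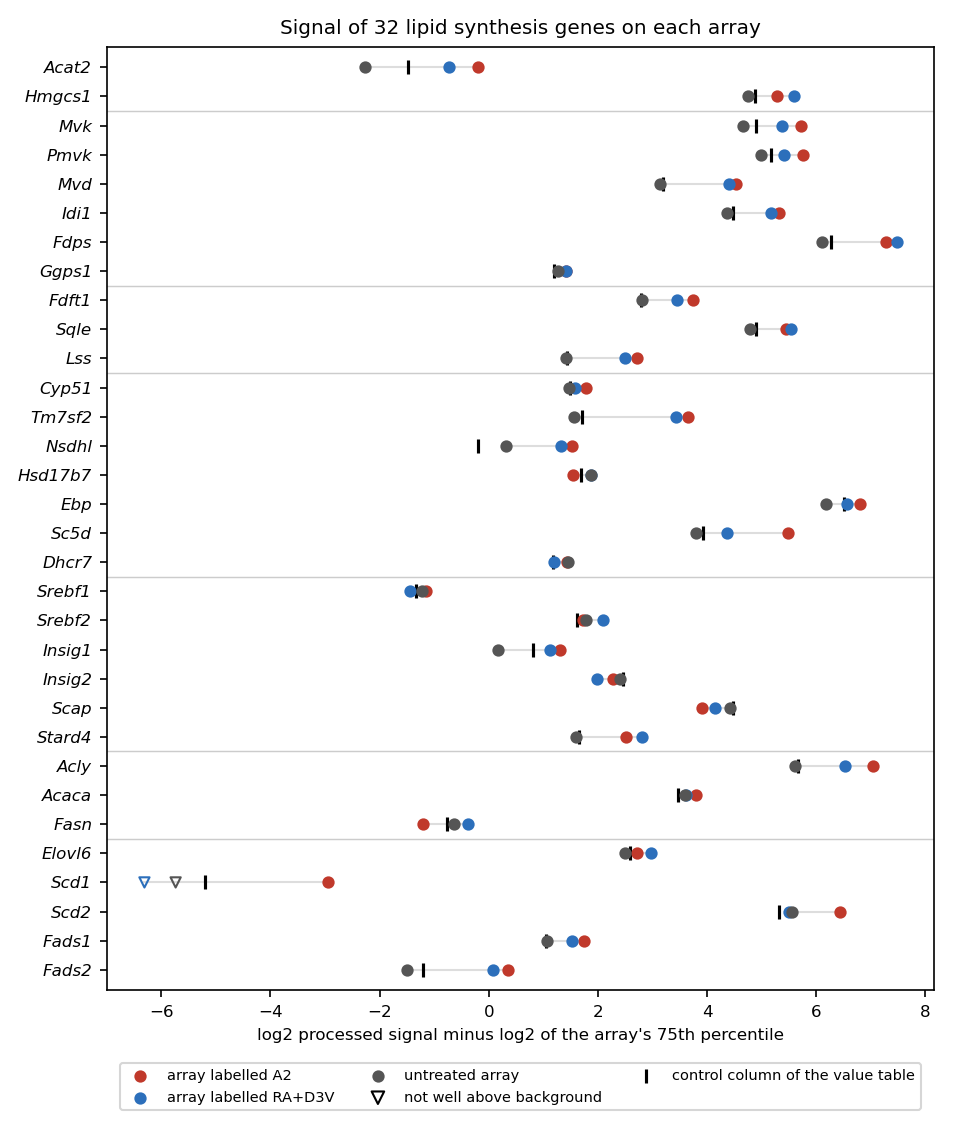
Level of each of the 32 genes on each array (log2 units relative to the 75th percentile of that array), in pathway order down the page. Red and blue points are the A2-labelled and RA+D3V-labelled arrays, grey points are the untreated array, black bars are the control column of the value table, and open triangles are signals not well above background. Treated points lie right of the untreated point for most cholesterol enzymes, as for Tm7sf2 at 3.64 (A2-labelled) and 3.44 (RA+D3V-labelled), against 1.56 (untreated).

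Cholesterol synthesis starts with the joining of acetyl-CoA units. Acat2, the cytosolic acetyl-CoA acetyltransferase that makes acetoacetyl-CoA, had a level of -0.19 on the A2-labelled array and -0.72 on the RA+D3V-labelled array, against -2.26 on the untreated array. It was 4.21-fold (A2-labelled) and 2.91-fold (RA+D3V-labelled) higher. The control sources differed by 0.78 for this gene, and against the second one (level -1.49) the differences were 1.30 on the A2-labelled array and 0.77 on the RA+D3V-labelled array (under 2-fold). Its probe lies at chr17:13136482-13136541 on the minus strand (build mm9). The neighbouring and closely related gene Acat3 differed by 0.89 (A2-labelled) and 0.57 (RA+D3V-labelled), and signal shared between the genes was not tested. Hmgcs1, the synthase that adds the next unit to give HMG-CoA, had levels of 5.28 on the A2-labelled array and 5.60 on the RA+D3V-labelled array, against 4.75 in untreated cells, differences of 0.54 (A2-labelled) and 0.85 (RA+D3V-labelled) that fell short of 2-fold.

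Among the enzymes that turn mevalonate into isoprenoid diphosphates, Mvd and Fdps stood above 2-fold on both treated arrays. Mvd, the decarboxylase that makes isopentenyl diphosphate, had a level of 4.53 on the A2-labelled array and 4.41 on the RA+D3V-labelled array, against 3.14 on the untreated array, and was 2.63-fold (A2-labelled) and 2.41-fold (RA+D3V-labelled) higher. Fdps, which makes farnesyl diphosphate, the branch point between sterols and prenyl groups, had levels of 7.29 on the A2-labelled array and 7.47 on the RA+D3V-labelled array, against 6.11, and was 2.26-fold (A2-labelled) and 2.57-fold (RA+D3V-labelled) higher. Against the second control source both genes kept differences of at least 2-fold on both arrays.

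The kinases of the same stretch differed less. Mvk, mevalonate kinase, had a level of 5.73 on the A2-labelled array, against 4.66 on the untreated array, a difference of 1.07 that was 0.83 against the second control source. On the RA+D3V-labelled array its level was 5.38, a difference of 0.71. Pmvk, the kinase of the next step, had differences of 0.76 (A2-labelled) and 0.42 (RA+D3V-labelled). Idi1, the isomerase of isopentenyl diphosphate, had differences of 0.96 on the A2-labelled array and 0.81 on the RA+D3V-labelled array. Ggps1, which diverts farnesyl diphosphate to geranylgeranyl diphosphate and so away from sterols, differed by 0.15 (A2-labelled) and 0.16 (RA+D3V-labelled).

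The steps from farnesyl diphosphate to lanosterol are those committed to sterols. Lss, the synthase that closes the ring of lanosterol, had levels of 2.71 on the A2-labelled array and 2.50 on the RA+D3V-labelled array, against 1.41 in untreated cells, and was 2.46-fold (A2-labelled) and 2.12-fold (RA+D3V-labelled) higher. Fdft1, squalene synthase, had levels of 3.75 (A2-labelled) and 3.44 (RA+D3V-labelled), against 2.81 (untreated), differences of 0.94 (A2-labelled) and 0.64 (RA+D3V-labelled). Sqle, squalene epoxidase and a rate-limiting step of the pathway, had levels of 5.45 (A2-labelled) and 5.54 (RA+D3V-labelled), against 4.78 (untreated), differences of 0.67 (A2-labelled) and 0.75 (RA+D3V-labelled). All 3 genes thus had the same sign on both treated arrays, and Lss alone passed 2-fold.

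The last enzymes, which trim lanosterol to cholesterol, had unlike values. Tm7sf2, a sterol reductase of the ring double bond left after demethylation, had the largest difference of the 31 genes on both treated arrays (just above Acat2 on the A2-labelled array), with levels of 3.64 on the A2-labelled array and 3.44 on the RA+D3V-labelled array, against 1.56 on the untreated array, and was 4.24-fold (A2-labelled) and 3.67-fold (RA+D3V-labelled) higher. Nsdhl, the dehydrogenase that works in the removal of the methyl groups at carbon 4, had levels of 1.52 (A2-labelled) and 1.33 (RA+D3V-labelled), against 0.32 (untreated), and was 2.31-fold (A2-labelled) and 2.02-fold (RA+D3V-labelled) higher. The second control source lay lower for Nsdhl, at -0.19, which gave differences of 1.71 (A2-labelled) and 1.52 (RA+D3V-labelled).

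Sc5d, the desaturase that acts shortly before the final reduction, had the largest difference between the treated arrays among the 31 genes measured on both. Its level was 5.48 on the A2-labelled array and 4.36 on the RA+D3V-labelled array, against 3.79 on the untreated array. It was 3.23-fold higher on the A2-labelled array, and 1.48-fold above its untreated level on the RA+D3V-labelled array. The other enzymes of this stretch stayed within 2-fold. Ebp, the sterol isomerase, differed by 0.63 (A2-labelled) and 0.39 (RA+D3V-labelled), and Cyp51, the demethylase that starts the trimming, differed by 0.31 (A2-labelled) and 0.12 (RA+D3V-labelled). Dhcr7, a reductase of the final step, differed by -0.01 (A2-labelled) and -0.24 (RA+D3V-labelled), and Hsd17b7, the ketoreductase that works with Nsdhl, by -0.32 on the A2-labelled array and 0.01 on the RA+D3V-labelled array.

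**Figure D3:**
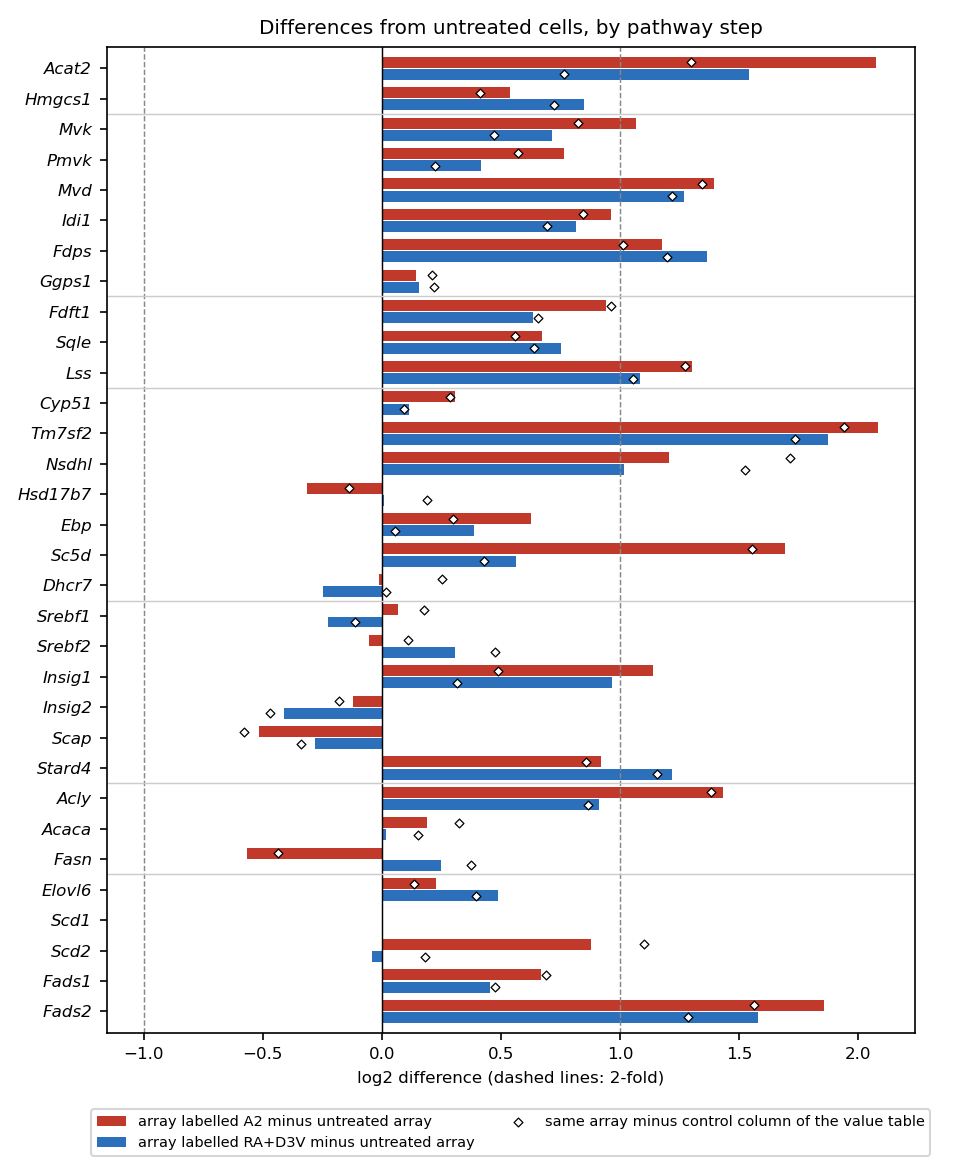
Log2 difference of the arrays labelled A2 (red bars, upper) and RA+D3V (blue bars, lower) from the untreated array for each gene, in pathway order. Diamonds give the same treated array against the control column of the value table and dashed lines mark 2-fold; Scd1 has no bar because it was below background on the untreated array. Bars reach past 2-fold on both arrays for genes such as Mvd, Fdps, Lss, Tm7sf2 and Fads2, and none reaches the lower 2-fold line.

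The promoters of 25 of the 32 genes were in the RefSeq promoter table (build GRCm38.p6, 250 bases before to 50 after the start), with 33 promoters in all. They were searched on both strands for the sterol element TCACNCCAC, the CCAAT box CCAAT, which binds the factor NF-Y, and the E-box CACGTG, and no match of one motif overlapped a match of another. The sterol element was found in 1 of the 25 genes, Hmgcs1, and in 1.44% of all 27025 genes of the table. The CCAAT box was found in 20 of the 25 genes (80.0%), against 41.1% of all genes, and the E-box in 5 of the 25, against 8.09%. These matches describe the letters of the window and nothing about binding. Only exact matches were counted, so a gene without a match may still hold a variant site or a site outside the window. The promoter with the sterol element is shown first, followed by those of 4 genes that were called higher on both treated arrays and hold a CCAAT box. Acat2 and Fads2, also called higher on both, have no match of any of the 3 motifs in their promoters and are not shown. Genes called on neither array hold the CCAAT box too, such as Ggps1, Hsd17b7 and Fasn with 3 matches each, so the box does not mark the called genes. Capitals mark the sterol element and the CCAAT box, which reads ATTGG on the opposite strand.
Hmgcs1, chr13:119690101-119690400 (plus strand): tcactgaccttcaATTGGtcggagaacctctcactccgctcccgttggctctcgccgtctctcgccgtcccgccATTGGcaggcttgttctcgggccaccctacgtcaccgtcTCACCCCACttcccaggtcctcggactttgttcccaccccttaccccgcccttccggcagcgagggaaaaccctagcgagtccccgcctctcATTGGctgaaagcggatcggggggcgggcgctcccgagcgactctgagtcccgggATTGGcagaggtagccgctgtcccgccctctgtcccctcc
Mvd, chr8:122443373-122443672 (minus strand): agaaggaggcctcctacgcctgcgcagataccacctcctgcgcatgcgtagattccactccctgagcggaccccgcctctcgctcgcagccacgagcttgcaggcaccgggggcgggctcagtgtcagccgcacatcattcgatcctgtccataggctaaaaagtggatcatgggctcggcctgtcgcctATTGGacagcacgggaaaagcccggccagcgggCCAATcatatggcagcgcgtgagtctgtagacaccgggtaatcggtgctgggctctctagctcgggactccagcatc
Lss, chr10:76531355-76531654 (plus strand): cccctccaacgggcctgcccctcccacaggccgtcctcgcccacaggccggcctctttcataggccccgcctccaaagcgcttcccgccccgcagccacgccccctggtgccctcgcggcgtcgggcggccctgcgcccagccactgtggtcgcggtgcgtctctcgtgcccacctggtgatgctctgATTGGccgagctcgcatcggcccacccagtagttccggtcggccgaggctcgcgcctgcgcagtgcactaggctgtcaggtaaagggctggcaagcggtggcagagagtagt
Tm7sf2, chr19:6067801-6068100 (minus strand): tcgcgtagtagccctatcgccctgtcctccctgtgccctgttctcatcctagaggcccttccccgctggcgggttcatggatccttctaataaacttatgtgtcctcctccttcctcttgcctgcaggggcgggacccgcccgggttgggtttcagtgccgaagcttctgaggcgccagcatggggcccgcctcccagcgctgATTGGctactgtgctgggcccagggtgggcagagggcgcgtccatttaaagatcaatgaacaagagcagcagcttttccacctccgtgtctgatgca
Nsdhl, chrX:72918271-72918570 (plus strand): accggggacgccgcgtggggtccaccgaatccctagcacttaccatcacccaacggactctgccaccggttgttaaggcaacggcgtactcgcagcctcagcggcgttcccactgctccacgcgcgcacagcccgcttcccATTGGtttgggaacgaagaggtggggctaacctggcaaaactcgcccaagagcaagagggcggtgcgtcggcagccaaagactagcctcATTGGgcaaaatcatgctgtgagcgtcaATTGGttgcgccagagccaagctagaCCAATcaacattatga
In Hmgcs1 the sterol element begins 137 bases before the start. The CCAAT box nearest upstream of the start begins 45 bases before it in Hmgcs1, 27 in Mvd, 62 in Lss, 47 in Tm7sf2 and 20 in Nsdhl.

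The regulators had medians near 0 on both treated arrays, and few single values stood out. Srebf2, which encodes the main activator of cholesterol enzymes, had levels of 1.73 on the A2-labelled array and 2.10 on the RA+D3V-labelled array, against 1.79 on the untreated array. Srebf1, which encodes the activator with more weight on fatty acid genes, had levels of -1.15 (A2-labelled) and -1.45 (RA+D3V-labelled), against -1.22 (untreated). Scap, the escort of both, had levels of 3.90 (A2-labelled) and 4.14 (RA+D3V-labelled), against 4.42 (untreated), differences of -0.52 (A2-labelled) and -0.28 (RA+D3V-labelled). None of these 3 genes was called in either direction, and Scap lay below both control sources on both treated arrays.

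The 2 Insig genes, whose products hold Scap in the endoplasmic reticulum, had unlike values. Insig1, itself a sterol-responsive target in many cell types, had levels of 1.30 on the A2-labelled array and 1.13 on the RA+D3V-labelled array, against 0.16 in untreated cells. The differences were 1.14 (A2-labelled) and 0.97 (RA+D3V-labelled), but the second control source lay at 0.81, and against it they were 0.49 (A2-labelled) and 0.31 (RA+D3V-labelled), under 2-fold. Insig2 had levels of 2.28 (A2-labelled) and 1.99 (RA+D3V-labelled), against 2.40 (untreated), differences of -0.12 (A2-labelled) and -0.41 (RA+D3V-labelled). The dimmer probe of Insig2 gave the opposite sign, at 0.06 (A2-labelled) and 0.22 (RA+D3V-labelled), so its direction is not settled. Stard4, a carrier that moves cholesterol between membranes, had levels of 2.51 on the A2-labelled array and 2.81 on the RA+D3V-labelled array, against 1.59. It was called higher on the RA+D3V-labelled array (2.32-fold) and had a difference of 0.92 on the A2-labelled array, while its dimmer probe gave 0.40 (A2-labelled) and 0.25 (RA+D3V-labelled).

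On the fatty acid side, the gene that supplies acetyl-CoA differed most among the synthesis enzymes. Acly, which cuts citrate to give cytosolic acetyl-CoA for both pathways, had levels of 7.05 on the A2-labelled array and 6.53 on the RA+D3V-labelled array, against 5.62 in untreated cells. It was 2.70-fold higher on the A2-labelled array, and the difference on the RA+D3V-labelled array was 0.91. Acaca, the carboxylase that makes malonyl-CoA, differed by 0.19 (A2-labelled) and 0.02 (RA+D3V-labelled). Fasn, the fatty acid synthase, had levels of -1.20 (A2-labelled) and -0.38 (RA+D3V-labelled), against -0.63 (untreated), differences of -0.56 (A2-labelled) and 0.25 (RA+D3V-labelled). By their brightest probes, Acaca and Fasn therefore stayed within 2-fold on both treated arrays. Acacb, a carboxylase gene outside the set, differed by 0.76 (A2-labelled) and 1.00 (RA+D3V-labelled, called higher). For Acacb the second control source lay 0.39 above the untreated array, so the call does not hold against it.

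Among the enzymes that lengthen or desaturate fatty acids, Fads2 was called higher on both treated arrays. Fads2, the first desaturase of polyunsaturated fatty acids, had levels of 0.36 on the A2-labelled array and 0.08 on the RA+D3V-labelled array, against -1.50 in untreated cells, and was 3.62-fold (A2-labelled) and 2.99-fold (RA+D3V-labelled) higher. Its partner Fads1 had levels of 1.74 (A2-labelled) and 1.53 (RA+D3V-labelled), against 1.07 (untreated), differences of 0.67 (A2-labelled) and 0.45 (RA+D3V-labelled). Elovl6, which lengthens palmitate, had differences of 0.23 (A2-labelled) and 0.49 (RA+D3V-labelled). Fads2 was thus the only one of these 3 genes past 2-fold.

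The 2 stearoyl-CoA desaturases of the set, which make monounsaturated fatty acids, both had their highest value on the A2-labelled array. Scd2 had levels of 6.43 on the A2-labelled array and 5.51 on the RA+D3V-labelled array, against 5.55 on the untreated array, differences of 0.88 (A2-labelled) and -0.04 (RA+D3V-labelled). Scd1 was well above background on the A2-labelled array alone, at a level of -2.95, which was at least 2.35-fold higher than on the untreated array. That bound sets its level against the dimmest probe that was still well above background on the untreated array. Scd3 and Scd4, desaturase genes outside the set, had their highest value on the RA+D3V-labelled array instead. Scd3 had levels of -1.58 (A2-labelled) and -0.82 (RA+D3V-labelled), against -1.91 (untreated), and was called higher on the RA+D3V-labelled array (1.08). Scd4 was well above background on the RA+D3V-labelled array alone, at a level of -2.68.

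Several probes of a gene gave a check within the arrays. Of the 32 genes, 14 had more than 1 probe and 12 had at least 2 probes well above background on all 3 arrays. All probes of a gene had the same sign in 8 of the 12 genes on the A2-labelled array and in 9 on the RA+D3V-labelled array. On the A2-labelled array the second probe gave 2.03 for Tm7sf2, 1.14 for Nsdhl, 1.95 for Fads2 and 0.81 for Mvk. For the RA+D3V-labelled array it gave 1.80 for Tm7sf2, 0.90 for Nsdhl, 1.47 for Fads2 and 0.62 for Mvk. For these 4 genes the second probe thus had the sign of the brightest, with the value for Mvk on the A2-labelled array and that for Nsdhl on the RA+D3V-labelled array under 2-fold.

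Other probes disagreed. The second probe of Acly, 27844 bases away in the genome, gave 1.89 on both treated arrays, where the brightest gave 1.43 (A2-labelled) and 0.91 (RA+D3V-labelled). The second probe of Srebf2, 4697 bases away, gave 0.71 on the A2-labelled array, where the brightest gave -0.06. For Hsd17b7 a second probe gave 0.42 where the brightest gave -0.32 (A2-labelled) and 0.56 where it gave 0.01 (RA+D3V-labelled), and another was not above background on the untreated array. The other probes of Ggps1 gave -0.18 for one and -0.26 for another on the A2-labelled array, where the brightest gave 0.15. A dim probe of Acaca, 206072 bases from the brightest, was above background on both treated arrays but not on the untreated array. Its levels were -2.37 (A2-labelled) and -1.71 (RA+D3V-labelled), against -3.96 (untreated). The probes of 4 genes are shown, Tm7sf2 as a gene whose probes gave like values and the rest as genes whose probes did not. The positions are of build mm9, and which exon or untranslated region each probe lies in is not given, because the annotation used here is of a later build.
Tm7sf2 brightest probe, chr19:6062882-6062941 (minus strand): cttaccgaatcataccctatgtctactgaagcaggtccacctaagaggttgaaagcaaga
Tm7sf2 other probe, chr19:6063541-6063600 (minus strand): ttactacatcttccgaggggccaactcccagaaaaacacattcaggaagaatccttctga
Acly brightest probe, chr11:100337674-100337733 (minus strand): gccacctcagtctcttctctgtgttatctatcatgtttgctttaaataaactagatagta
Acly other probe, chr11:100365518-100365577 (minus strand): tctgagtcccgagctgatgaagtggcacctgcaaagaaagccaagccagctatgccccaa
Srebf2 brightest probe, chr15:82034765-82034824 (plus strand): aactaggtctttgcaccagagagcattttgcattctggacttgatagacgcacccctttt
Srebf2 other probe, chr15:82030068-82030127 (plus strand): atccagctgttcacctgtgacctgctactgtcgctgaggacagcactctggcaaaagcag
Hsd17b7 brightest probe, chr1:171880203-171880262 (minus strand): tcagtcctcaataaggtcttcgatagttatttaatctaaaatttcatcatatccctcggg
Hsd17b7 second probe, chr1:171883182-171883241 (minus strand): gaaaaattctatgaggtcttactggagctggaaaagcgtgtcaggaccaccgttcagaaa

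**Figure D4:**
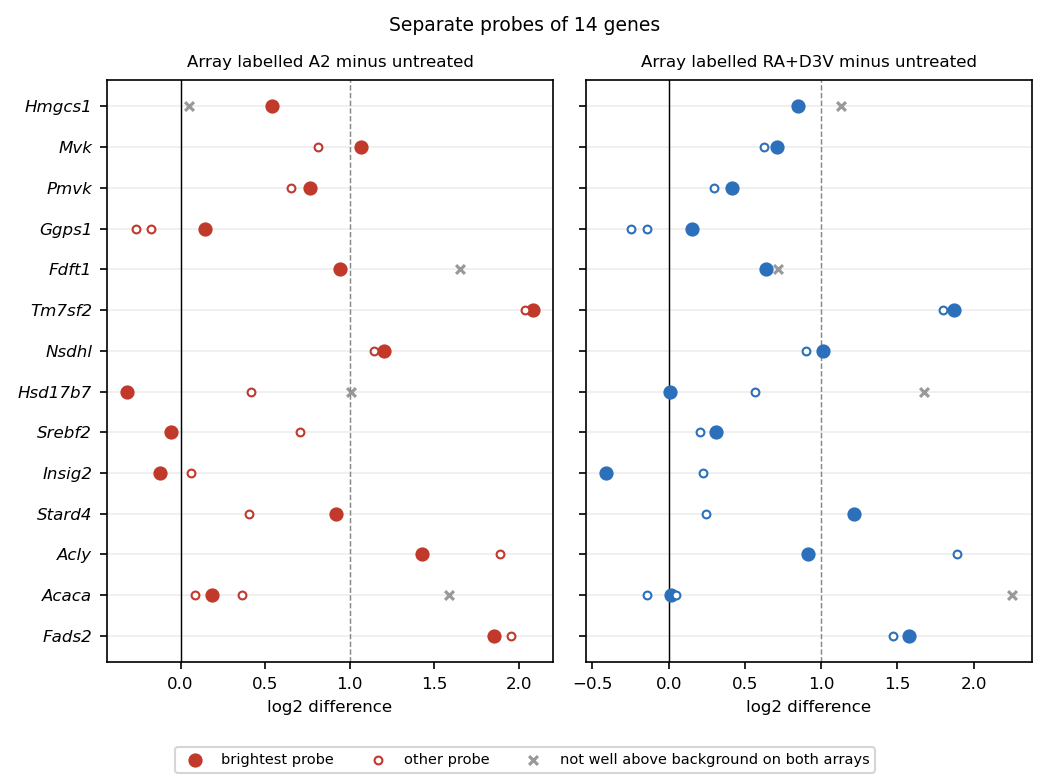
Log2 difference of each probe from the untreated array for the 14 genes with several probes, on the A2-labelled array (left) and the RA+D3V-labelled array (right). Filled points are the brightest probe, open points other probes well above background on both arrays, and grey crosses probes that were not. The probes of Tm7sf2, Nsdhl and Fads2 lie close together, and those of Acly, Srebf2 and Hsd17b7 lie apart.

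The calls were also set against both control sources together. On the A2-labelled array, 9 of the 31 genes were at least 2-fold above both control sources, against 6.23% of all measured genes: Acat2, Mvd, Fdps, Lss, Tm7sf2, Nsdhl, Sc5d, Acly and Fads2. On the RA+D3V-labelled array, 7 were so, against 5.55%: Mvd, Fdps, Lss, Tm7sf2, Nsdhl, Stard4 and Fads2. Without the 2-fold limit, 25 of 31 genes lay above both control sources on the A2-labelled array (37.9% of all genes) and 26 on the RA+D3V-labelled array (38.4%). Below both lay 4 genes on the A2-labelled array (48.1% of all genes) and 3 on the RA+D3V-labelled array (47.9%). At least 2-fold below both lay 0 genes on either array, against 5.22% of all genes on the A2-labelled array and 3.81% on the RA+D3V-labelled array. At a limit of 1.5-fold, chosen after the values were seen, 19 of 31 genes were higher and 0 lower on the A2-labelled array than on the untreated array (17.1% and 17.0% of all genes), and 15 were higher and 0 lower on the RA+D3V-labelled array (17.7% and 15.5%).

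Between the treated arrays, nearly all of these genes stayed within 2-fold. Of 31 genes, 1 was called higher on the A2-labelled array than on the RA+D3V-labelled array, against 3.77% of 17628 measured genes, and 0 were called lower, against 4.04%. The median difference was 0.19, with -0.02 for all genes, and 21 of 31 lay above 0, against 47.9%. The called gene was Sc5d, 2.18-fold higher on the A2-labelled array. Its probe lies at chr9:42062857-42062916 on the minus strand (mm9). Scd1 was at least 2.05-fold higher on the A2-labelled array, and Scd2 differed by 0.92 and Fasn by -0.81 without a call at 2-fold. At 1.5-fold, 2 genes were higher and 1 lower, against 8.87% and 11.2% of all genes. Which treatment the higher array holds depends on the labels. The treatments were given at different doses, 3.4 µM and 10 µM, so these values are set side by side as single arrays only.

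**Figure D5:**
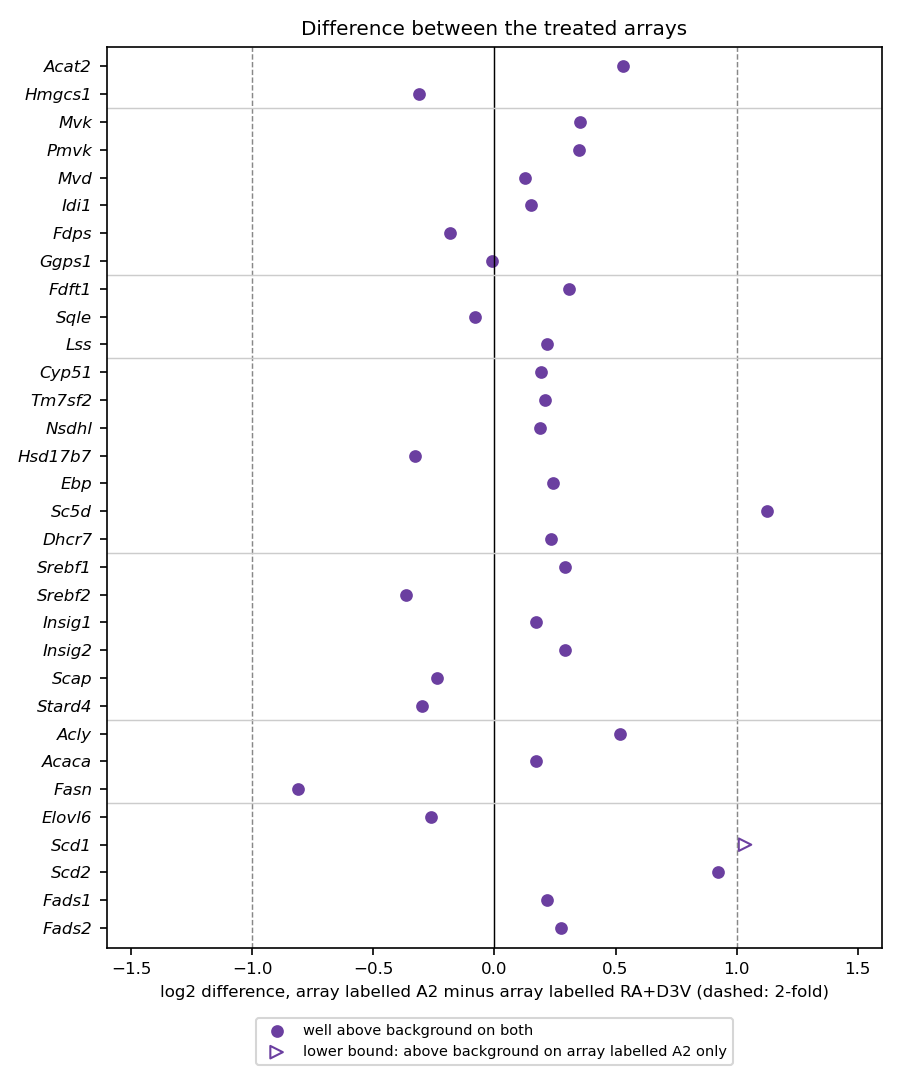
Log2 difference of the A2-labelled array from the RA+D3V-labelled array for each of the 32 genes, in pathway order, with dashed lines at 2-fold. Sc5d, at 1.13, is the only filled point past 2-fold. The open triangle of Scd1, a lower bound, also lies past the line, and Fasn, at -0.81, is the lowest point.

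Further genes of the same pathways were set beside these 32. Of 11 measured genes of a list of 14 other cholesterol synthesis and uptake genes, 1 was called higher on each treated array, against 7.92% (A2-labelled) and 7.81% (RA+D3V-labelled) of all measured genes, with medians of 0.16 on the A2-labelled array and 0.18 on the RA+D3V-labelled array. That gene was Soat1, which esterifies cholesterol for storage (1.24 A2-labelled and 1.27 RA+D3V-labelled). The next highest on the A2-labelled array was Npc1, which exports cholesterol from lysosomes (1.00, just under the limit, and 0.18 on the RA+D3V-labelled array). Msmo1, an enzyme of the lanosterol stretch, differed by 0.97 (A2-labelled) and 0.67 (RA+D3V-labelled).

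Other genes of fatty acid synthesis, elongation and esterification had calls in both directions. Of 21 measured genes of a list of 23, 3 were called higher and 1 lower on the A2-labelled array (median 0.11), and 4 higher and 2 lower on the RA+D3V-labelled array (median 0.04). Over all measured genes the shares were 7.92% higher and 6.46% lower on the A2-labelled array, and 7.81% higher and 5.04% lower on the RA+D3V-labelled array. On the A2-labelled array the extremes were Dgat1, which makes triglyceride, 15.97-fold higher (single probe), and Acss2, which makes acetyl-CoA from acetate, at 3.21 log2 units, with Fads3 at -2.35. The RA+D3V-labelled array gave log2 differences of 0.69 for Dgat1, 0.72 for Acss2 and -0.89 for Fads3. These 3 genes were called in the comparison of the treated arrays, at 3.31 for Dgat1, 2.49 for Acss2 and -1.46 for Fads3. On the RA+D3V-labelled array the extremes were Lpin1 (1.26), a phosphatidate phosphatase, and Slc25a1 (1.24), the citrate carrier that supplies Acly, with Me1 (-1.23) and Gpam (-1.21) lowest. Slc25a1 was also at 1.24 on the A2-labelled array.

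Branches beside sterol synthesis are read against the same shares of all genes, 7.92% higher and 6.46% lower (A2-labelled) and 7.81% higher and 5.04% lower (RA+D3V-labelled). In the isoprenoid branch of 10 genes, which uses farnesyl diphosphate for prenylation, dolichol and ubiquinone, 0 were called higher and 2 lower on each treated array, with medians of -0.45 on the A2-labelled array and -0.54 on the RA+D3V-labelled array. They were Fntb, a subunit of farnesyltransferase (-1.33 A2-labelled and -1.21 RA+D3V-labelled), and Pdss2, of ubiquinone tail synthesis (-1.40 A2-labelled and -1.04 RA+D3V-labelled). The second control source minus the untreated array was -0.23 for Fntb and -0.32 for Pdss2. Against that source the RA+D3V-labelled values of both genes are under 2-fold. Of 14 measured sterol regulators and LXR genes in a list of 15, 0 were called on the A2-labelled array and 1 was called higher on the RA+D3V-labelled array, Mbtps2, a protease that releases the sterol regulatory factors (1.30), with medians of 0.02 (A2-labelled) and -0.01 (RA+D3V-labelled). For Mbtps2 the second control source lay 0.76 above the untreated array, so the call does not hold against it. Abcg1, a sterol exporter and LXR target, differed by 0.67 (A2-labelled) and 0.63 (RA+D3V-labelled). Other genes of the list did not share this. Mylip differed by 0.08 (A2-labelled) and -0.68 (RA+D3V-labelled), Nr1h3 by -0.42 (A2-labelled) and 0.09 (RA+D3V-labelled), and Abca1 was below background on all arrays. The lowest gene was Erlin1, at -0.88 (A2-labelled) and -0.97 (RA+D3V-labelled). Of 13 genes of fatty acid oxidation, 0 were called on either treated array, with medians of 0.33 (A2-labelled) and 0.09 (RA+D3V-labelled).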

How the data were processed

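RNA of 3 samples was measured on 3 single-colour arrays. Per the labels, 50 ng of total RNA was treated with DNase and labelled with Cy3. Scanner files came from Agilent Feature Extraction 11.5.1.1, per the submitters' processing notes. The deposited spot intensity is, per the file headers, the processed signal after correction for background and spatial trend, and the deposited flags of 0 or 1 mark spots that are uneven, saturated or well above background. The value table deposited by the authors holds linear intensity, quantile normalised between columns (99.9% of sorted values equal within 0.01%); its treated columns keep the rank order of the scanner signals, and which array its control column holds remains unknown.

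Control spots and 25 uneven probes were removed, and 55656 probes remained. Processed signals were divided by the 75th percentile of their array and taken to log2, spots of a probe were averaged, and the probe with the highest mean was used for each gene. Probes other than those of the 32 genes were named through RefSeq by accession (27600), symbol (3395) or synonym (321), and 24290 kept the file's name. A comparison counts a gene as measured if the probe passed the flag for background on each of its arrays. With 1 array per condition no test was run, and the number of arrays limits the precision. A batch difference between arrays could not be told apart from the treatment.

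All 32 genes are named. Of each further list (other cholesterol genes, other fatty acid genes, sterol regulators and LXR genes, isoprenoid branch, fatty acid oxidation), counts and up to 2 highest and 2 lowest genes are given, and some genes are not reported here; other genes named, such as Msmo1, Abcg1 and Acat3, were chosen after their values were seen. Members and lists were chosen with earlier results of these data known. Alternatives were normexp background correction (limma 3.58.1, R 4.3.3, offset 50), quantile and median scaling, the median over probes, filters on dim probes, leaving out probes with 8 or more G and T bases in alternation, the value table's control column, the value table itself, and a 1.5-fold limit. Calculations used Python 3.11.15, and the scripts were tested on simulated data.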

Additional observations from a re-analysis of the deposited data

How the results depend on the processing

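No gene called at 2-fold changed sign. Against the untreated array, 10 to 11 genes were called higher on the A2-labelled array, and 6 to 8 on the RA+D3V-labelled array, over the alternatives at 2-fold, and none was called lower. The number measured was 31, except 28 (A2-labelled) and 27 (RA+D3V-labelled) where the brighter signal had to exceed the median of detected probes. The median difference on the A2-labelled array was 0.76, and it was 0.57 with the control column of the value table, 0.62 with normexp and 0.54 with the value table; the cause was not tested. At a 1.5-fold limit, chosen after seeing the data, 19 genes were higher and 0 lower on the A2-labelled array, 15 higher and 0 lower on the RA+D3V-labelled array, and 2 higher and 1 lower between the treated arrays. At least 2-fold under every alternative that measured them were 9 genes on the A2-labelled array, and 4 on the RA+D3V-labelled array: Mvd, Fdps, Tm7sf2 and Fads2. That filter on dim signals left out Acat2 in both comparisons and Fads2 in the RA+D3V-labelled one. Sc5d was so between the treated arrays. The sign of the difference held under every alternative for 27 of 31 genes on the A2-labelled array, 26 on the RA+D3V-labelled array and 29 between the treated arrays. Those that changed sign, none of them called, included Ggps1 (-0.18 to 0.21), Hsd17b7 (-0.33 to 0.05), Dhcr7 (-0.09 to 0.25) and Srebf2 (-0.09 to 0.33) on the A2-labelled array. No brightest probe held a run of 8 alternating G and T bases. No paired analysis was possible because each condition has 1 array. Each probe has 1 spot per array, Scd1 lay near background, and differences near the 0.28 SD between control sources cannot be read from single arrays.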
